A study of Homo sapiens with 36 samples.

Results

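The distal 14q32 miRNAs are the mature products of the hairpins that run from MIR379 to MIR656 on the long arm of human chromosome 14. The members are a list of 46 mature miRNAs chosen by their cluster, by a rule with no threshold on a measured value, although earlier results of these data were known when the list was chosen. All 46 were among the 1508 miRNA names of the count table, and 44 of them were among the 360 miRNAs that passed the low-count filter and were tested. The remaining members, hsa-miR-154-5p and hsa-miR-377-3p, reached at most 15 and 40 counts in any library and were not tested.

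The table covered 36 small RNA libraries from 18 conditions with 2 biological replicates each, all of them WI-38, normal fibroblasts from human lung. Young proliferating, untreated cells served as control (Ctrl). PMD-Sen cells became senescent after plasma membrane damage by the detergent SDS, and DDR-Sen cells after DNA damage by doxorubicin (DXR). Both were collected at the end of treatment, before the agent was washed out (D0), and on 7 days from D1 to D16 (D1, D2, D3 and D4, then D6 and D8, and last D16). RS cells had reached replicative senescence by repeated passage. Every group was the same fibroblast strain with no altered gene, so the values describe 1 strain. Ctrl was the only group of young proliferating cells, with no untreated cells collected alongside the treated ones at the later days.

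The cluster lies in the imprinted DLK1-DIO3 region, where the maternal chromosome is the transcribed source of long non-coding RNAs and of the miRNAs cut from them. Each hairpin is processed to a short duplex whose 5′ strand (5p) and 3′ strand (3p) can both enter an Argonaute protein, and the bases next to the 5′ end, the seed, choose the targets. The cluster is found in placental mammals, is best known from the brain and the embryo, and is also expressed by mesenchymal cells such as fibroblasts.

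In RefSeq (GRCh38.p14), 45 of the 46 members had an entry, and hsa-miR-668-3p is given by name. The 36 hairpins of these members spanned chr14:101022066-101066801 on the plus strand, which is 44.7 kb. In the GENCODE annotation, 11 hairpins lay in introns of MEG8, 14 in introns and 6 in exons of MEG9, and 5 between these long non-coding RNA genes. The mature sequences of the 8 most abundant members are shown because they carried most of the counts, with the seed, bases 2 to 8, in capitals.
hsa-miR-409-3p: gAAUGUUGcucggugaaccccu
hsa-miR-494-3p: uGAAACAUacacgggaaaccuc
hsa-miR-379-5p: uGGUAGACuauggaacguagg
hsa-miR-487b-3p: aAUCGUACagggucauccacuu
hsa-miR-382-5p: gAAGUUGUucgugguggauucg
hsa-miR-543: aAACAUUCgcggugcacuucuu
hsa-miR-329-3p: aACACACCugguuaaccucuuu
hsa-miR-134-5p: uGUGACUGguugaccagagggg

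The 45 sequences had 40 distinct seeds, and 26 members had a seed that no other human mature miRNA in RefSeq carried. Only 5 seeds were held by a pair of members, and these pairs are shown because a shared seed means largely shared possible target sites. hsa-miR-379-3p and hsa-miR-411-3p come from neighbouring hairpins, and hsa-miR-376a-3p is encoded by a pair of hairpins on both sides of MIR376B.
hsa-miR-379-3p: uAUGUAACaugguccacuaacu
hsa-miR-411-3p: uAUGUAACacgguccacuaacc
hsa-miR-487a-3p: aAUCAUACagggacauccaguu
hsa-miR-154-3p: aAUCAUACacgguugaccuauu
hsa-miR-654-5p: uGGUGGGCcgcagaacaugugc
hsa-miR-541-3p: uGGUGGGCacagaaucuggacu
hsa-miR-539-3p: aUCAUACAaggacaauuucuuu
hsa-miR-485-3p: gUCAUACAcggcucuccucucu
hsa-miR-376a-3p: aUCAUAGAggaaaauccacgu
hsa-miR-376b-3p: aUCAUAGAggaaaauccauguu

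The next sequences are a selection of further members named with values below. They departed most from the others in at least 1 comparison, differed between the PMD-Sen and DDR-Sen series, or were higher in each comparison with Ctrl.
hsa-miR-411-5p: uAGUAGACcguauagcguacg
hsa-miR-1185-1-3p: aUAUACAGggggagacucuuau
hsa-miR-299-3p: uAUGUGGGaugguaaaccgcuu
hsa-miR-485-5p: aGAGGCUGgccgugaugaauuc
hsa-miR-377-5p: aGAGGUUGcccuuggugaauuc
hsa-miR-380-3p: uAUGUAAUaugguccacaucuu
hsa-miR-656-3p: aAUAUUAUacagucaaccucu
hsa-miR-410-3p: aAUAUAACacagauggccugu
hsa-miR-495-3p: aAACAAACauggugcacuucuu

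The libraries held 81668 to 1933435 counts, with a median of 376989, and the PMD-Sen D16 replicates differed 4.39-fold in total. Between replicates, chi-square per degree of freedom was far above the value of about 1 that counting error gives, and the fitted biological coefficient of variation was 20.9%. The fibroblast marker miRNAs summed to 51962 to 131845 CPM (counts of a miRNA per 1e6 counts of its library, TMM-scaled), although hsa-miR-196a-5p and hsa-miR-10b-5p of that list were near 0. Most of this sum was hsa-miR-21-5p, with a median of 59939 CPM beside 76729 CPM for the sum. Muscle and embryonic stem cell markers summed to at most 41.9 and 27.4 CPM. Neuronal markers summed to at most 17.6 CPM and leukocyte markers to at most 8.81 CPM in any library, and erythroid, hepatocyte and epithelial markers to at most 1108, 264 and 163 CPM, whose part in the results was not tested. The erythroid sum came almost wholly from hsa-miR-486-5p. Of the other erythroid markers, hsa-miR-451a had at most 12.6 CPM and hsa-miR-144-3p was not among the miRNA names. Because the libraries are bulk samples, a change per cell and a change in the share of cells that express a miRNA cannot be told apart.

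The members took 4.62% and 5.09% of the miRNA counts in the Ctrl libraries, and their share was higher late in both series and in RS. In PMD-Sen, the mean share was 4.91% at D0, 6.00% at D3 and 7.19% at D6, and it was 5.67% and 7.33% in the D16 replicates. In DDR-Sen it was 4.67% at D0 and 4.66% at D4, then 5.52% at D6, and the D16 replicates had 6.47% and 6.98%. The RS libraries had 6.79% and 6.36%. Both libraries of RS and of each D16 condition lay above both Ctrl libraries, while the DDR-Sen libraries from D1 to D4 lay within or below the Ctrl range.

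**Figure D1:**
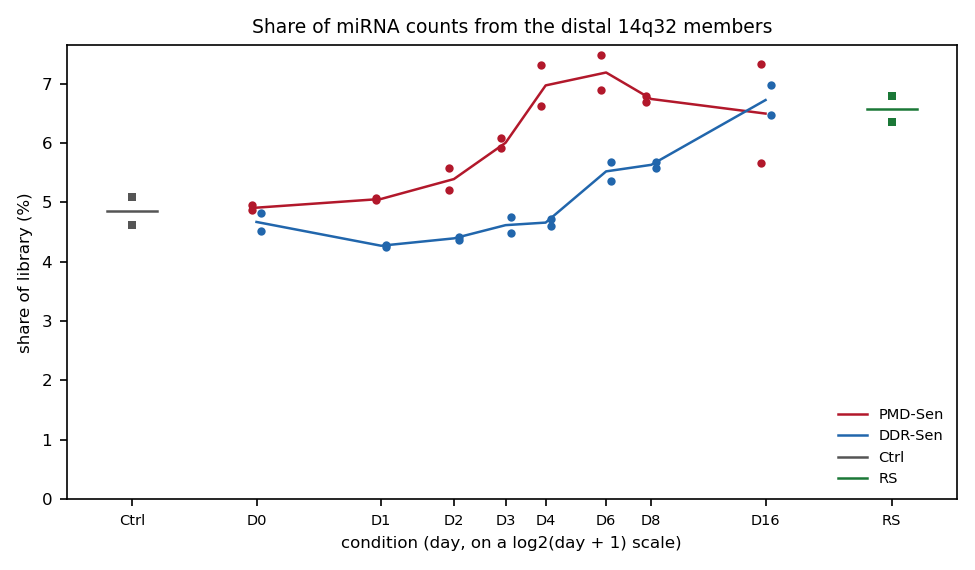
Summed counts of the 46 members as a percentage of all miRNA counts (vertical axis), by condition (horizontal axis, days on a log2(day + 1) scale). Points are single libraries, lines join the means of the 2 replicates, and short bars are the Ctrl and RS means. PMD-Sen reached 6.97% at D4, when DDR-Sen was at 4.66%.

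Expression within the cluster was very uneven. hsa-miR-409-3p, with a mean of 14827 CPM over the 36 libraries, made up 26.5% of the cluster's CPM. It was followed by hsa-miR-494-3p (4864 CPM), hsa-miR-379-5p (3904 CPM), hsa-miR-487b-3p (3584 CPM) and hsa-miR-382-5p (3527 CPM). hsa-miR-543 (2753 CPM), hsa-miR-329-3p (2410 CPM) and hsa-miR-134-5p (2312 CPM), which in neurons is known for repressing the kinase LIMK1 in dendrites, completed the 8 most abundant members. These are relative abundances in CPM, and ligation and amplification preferences of a small RNA library bear on comparisons between miRNAs. At the other end, hsa-miR-541-3p (28.8 CPM), hsa-miR-539-3p (22.0 CPM) and hsa-miR-376b-3p (18.4 CPM) were the least abundant of the tested members, and each was at 0 in at least 1 library.

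To ask how the cluster differed between senescent and proliferating cells, PMD-Sen D16, DDR-Sen D16 and RS were each compared with Ctrl. In PMD-Sen D16, 14 of the 44 tested members were upregulated at an adjusted p below 0.05, against 8.89% of all 360 tested miRNAs, and 0 were downregulated, against 7.78%. Without adjustment, 26 members had a higher level and 0 a lower one at p below 0.05, beside 64 and 58 of all 360. DESeq2 also called 0 lower. The members' median log2 fold change was 0.73, beside 0.05 for all tested miRNAs, and 41 of 44 members had a positive value. In DDR-Sen D16, 17 members were upregulated, against 11.4% of all tested miRNAs, and 0 downregulated, against 11.7%, with a median of 0.74 beside -0.03. Unadjusted, 22 were higher and 1 lower, beside 57 and 66 of all 360, and DESeq2 called 1 lower. In RS, 12 were upregulated, against 10.3%, and 0 downregulated, against 12.2%, with a median of 0.65 beside 0.12. Unadjusted, 21 were higher and 1 lower, beside 62 and 63 of all 360, and DESeq2 called 0 lower. The 3 comparisons share the Ctrl libraries and are therefore not independent of each other.

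hsa-miR-487b-3p had 2733 and 2451 CPM in Ctrl, 4487 and 5175 CPM in PMD-Sen D16, 4834 and 5085 CPM in DDR-Sen D16, and 4621 and 5103 CPM in RS. All 6 senescent libraries lay above both Ctrl libraries. Its log2 fold change was 0.90 ± 0.20 (SE, n = 2) in PMD-Sen D16 (adjusted p = 0.00317 by edgeR), 0.94 ± 0.20 in DDR-Sen D16 (adjusted p = 0.000989) and 0.91 ± 0.20 in RS (adjusted p = 0.000929).

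hsa-miR-494-3p had 3859 and 3472 CPM in Ctrl, 5759 and 6653 CPM in PMD-Sen D16, 6439 and 7446 CPM in DDR-Sen D16, and 5406 and 7278 CPM in RS. It did not overlap with Ctrl in any of these groups, and it rose by a log2 of 0.76 ± 0.19, 0.92 ± 0.19 and 0.79 ± 0.19, respectively (adjusted p = 0.0071, 0.000669 and 0.00179 by edgeR).

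hsa-miR-329-3p, a product of a pair of hairpins, had 1641 and 1662 CPM in Ctrl, 2854 and 3293 CPM in PMD-Sen D16, and 3261 and 3382 CPM in DDR-Sen D16. In RS it had 2097 and 2110 CPM, above Ctrl but below all 4 D16 libraries. Its log2 fold change was 0.89 ± 0.19 in PMD-Sen D16 (adjusted p = 0.00233 by edgeR) and 1.01 ± 0.19 in DDR-Sen D16 (adjusted p = 0.000275), and 0.35 ± 0.19 in RS (adjusted p = 0.197).

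hsa-miR-495-3p went from 1053 and 998 CPM in Ctrl to 2004 and 1889 CPM in PMD-Sen D16, 2403 and 3081 CPM in DDR-Sen D16, and 1813 and 2387 CPM in RS. hsa-miR-410-3p went from 279 and 289 CPM to 519 and 735 CPM, 661 and 969 CPM, and 589 and 956 CPM in the same order. Both passed the test in each comparison, with log2 fold changes from 0.93 ± 0.25 for hsa-miR-495-3p in PMD-Sen D16 (adjusted p = 0.0129 by edgeR) to 1.52 ± 0.33 for hsa-miR-410-3p in DDR-Sen D16 (adjusted p = 0.00114).

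hsa-miR-668-3p had the highest fold changes of the cluster, at a low level. It had 34.4 and 31.5 CPM in Ctrl, 99.6 and 112 CPM in PMD-Sen D16, 161 and 134 CPM in DDR-Sen D16, and 219 and 251 CPM in RS. The groups did not overlap with Ctrl, and the log2 fold changes were 1.68 ± 0.52, 2.16 ± 0.52 and 2.84 ± 0.51 (adjusted p = 0.0273, 0.00329 and 0.000133 by edgeR). hsa-miR-656-3p, from the last hairpin of the cluster, had 47.3 and 37.2 CPM in Ctrl and 106 to 146 CPM in the senescent libraries. It rose by a log2 of 1.67 ± 0.55 in DDR-Sen D16 (adjusted p = 0.0279 by edgeR), while its value of 1.46 ± 0.55 in PMD-Sen D16 and of 1.46 ± 0.55 in RS did not pass (adjusted p = 0.0625 and 0.0547).

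hsa-miR-409-5p, the minor arm of the most abundant hairpin, had 799 and 861 CPM in Ctrl, 1381 and 1559 CPM in PMD-Sen D16, 1244 and 1634 CPM in DDR-Sen D16, and 1276 and 1768 CPM in RS. hsa-miR-412-5p had 782 and 543 CPM, 850 and 1349 CPM, 1231 and 1256 CPM, and 1548 and 1108 CPM in the same order. All senescent libraries lay above both Ctrl libraries for these miRNAs, and their log2 fold changes ran from 0.73 ± 0.24 (hsa-miR-412-5p in PMD-Sen D16, adjusted p = 0.0361 by edgeR) to 1.01 ± 0.24 (hsa-miR-412-5p in RS, adjusted p = 0.00189).

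hsa-miR-369-3p had 636 and 672 CPM in Ctrl, 1615 and 1545 CPM in PMD-Sen D16, and 1592 and 1692 CPM in DDR-Sen D16. In RS its replicates lay far apart, at 697 and 1455 CPM. It rose by a log2 of 1.27 ± 0.37 in PMD-Sen D16 and 1.33 ± 0.37 in DDR-Sen D16 (adjusted p = 0.0181 and 0.00821 by edgeR), while its value of 0.72 ± 0.37 in RS did not pass (adjusted p = 0.16).

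The other members that rose in PMD-Sen D16 were hsa-miR-323b-3p, hsa-miR-369-5p, hsa-miR-655-3p, hsa-miR-411-5p and hsa-miR-654-3p, up to 1.28 log2 for hsa-miR-655-3p. In DDR-Sen D16 they were hsa-miR-655-3p, hsa-miR-323b-3p, hsa-miR-654-3p, hsa-miR-411-3p, hsa-miR-380-3p, hsa-miR-323a-3p and hsa-miR-379-3p, with 0.65 (hsa-miR-323a-3p) to 1.80 (hsa-miR-380-3p). In RS they were hsa-miR-377-5p, hsa-miR-369-5p, hsa-miR-654-5p, hsa-miR-411-5p and hsa-miR-323b-3p, with 0.72 (hsa-miR-323b-3p) to 1.26 (hsa-miR-377-5p).

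A few members did not share this shift in at least 1 of the comparisons. hsa-miR-382-5p, the fifth most abundant, had 3627 and 2754 CPM in Ctrl, 3304 and 3579 CPM in PMD-Sen D16, 3795 and 3257 CPM in DDR-Sen D16, and 3199 and 2878 CPM in RS. These groups overlapped, and its log2 fold changes of 0.11 ± 0.19, 0.15 ± 0.19 and -0.07 ± 0.19 lay at the low end of the cluster. hsa-miR-409-3p, the most abundant member, overlapped with Ctrl (14678 and 12216 CPM) at D16, with 12899 and 18610 CPM in PMD-Sen and 15231 and 13930 CPM in DDR-Sen. In RS both of its libraries, at 20880 and 16673 CPM, lay above Ctrl, and its log2 fold change of 0.48 ± 0.20 did not pass (adjusted p = 0.077 by edgeR).

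hsa-miR-299-3p had 103 and 106 CPM in Ctrl, 59.9 and 68.2 CPM in PMD-Sen D16, 41.5 and 38.4 CPM in DDR-Sen D16, and 47.7 and 45.1 CPM in RS. All 6 senescent libraries lay below both Ctrl libraries, but its log2 values of -0.72 ± 0.51, -1.39 ± 0.55 and -1.17 ± 0.54 did not pass (adjusted p = 0.323, 0.0675 and 0.115 by edgeR). It had the lowest value of the cluster in each comparison. In PMD-Sen D16 hsa-miR-541-3p (-0.41 ± 0.68), and in DDR-Sen D16 hsa-miR-539-5p (-0.13 ± 0.33), came next, and neither passed. hsa-miR-541-3p had 47.3 and 11.4 CPM in Ctrl, and its direction in PMD-Sen D16 depended on which of these libraries was kept.

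**Figure D2:**
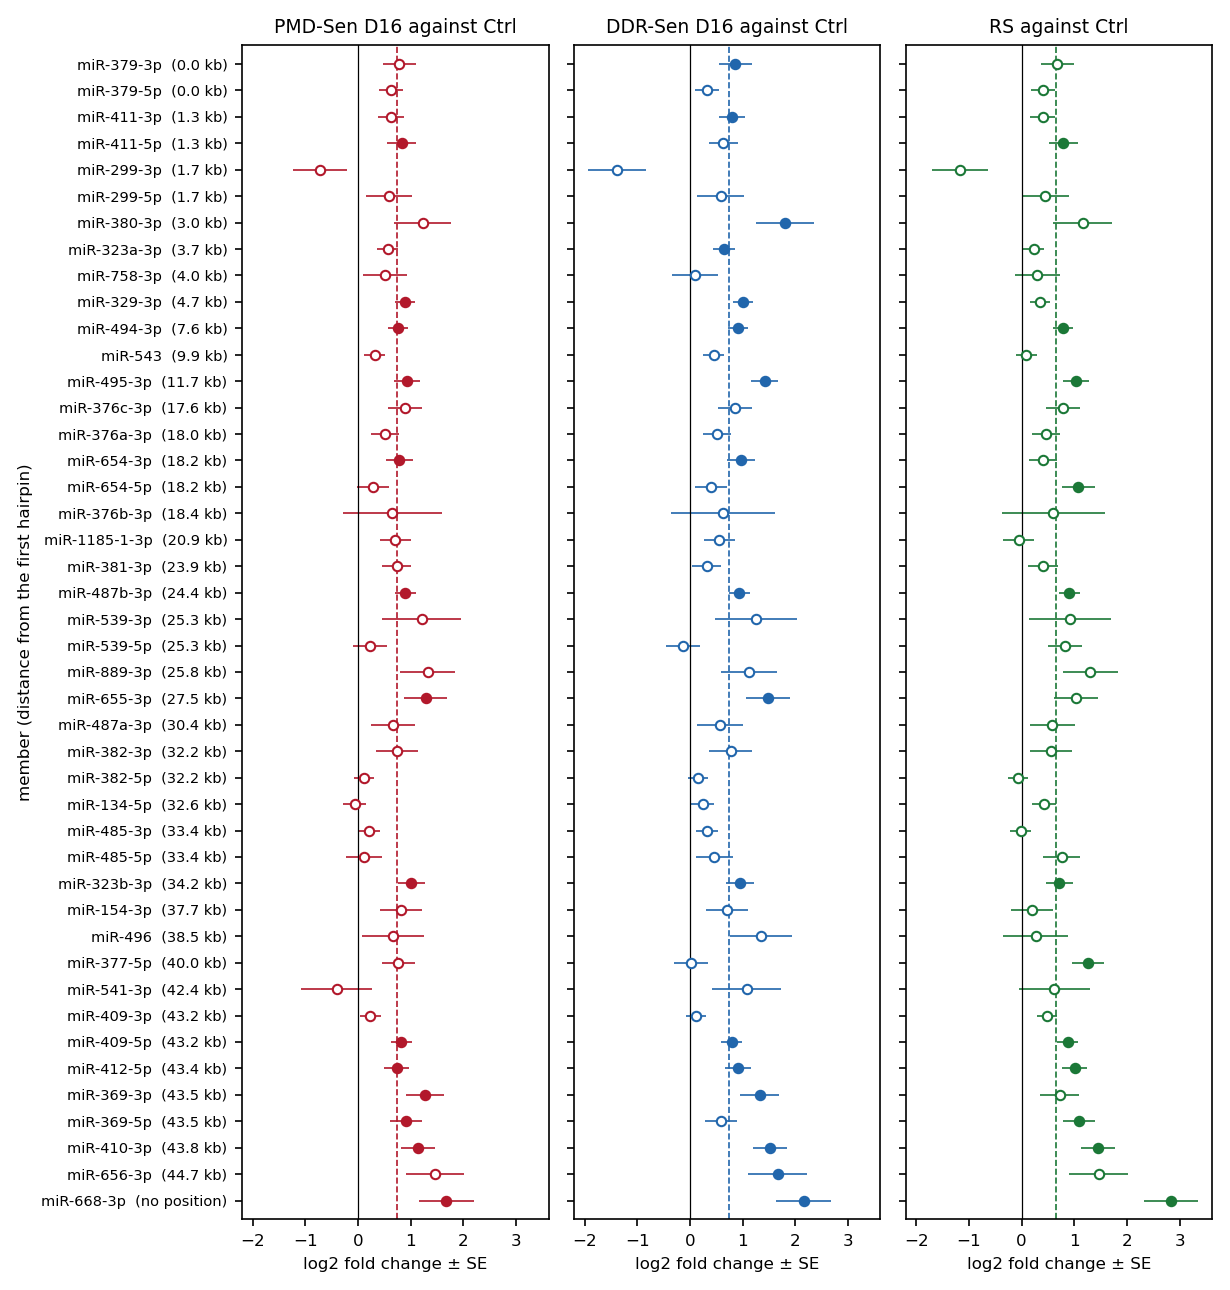
log2 fold change against Ctrl with its SE (horizontal axes) for the 44 tested members, ordered by distance along the cluster from the first hairpin (vertical axis), in PMD-Sen D16, DDR-Sen D16 and RS. Filled points passed an adjusted p of 0.05, the solid line is 0 and the dashed line is the members' median (0.73, 0.74 and 0.65). Most members lie to the right of 0 along the whole cluster, hsa-miR-299-3p lies to the left and hsa-miR-668-3p lies farthest right.

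Counted by library, 33 of the 44 members had both PMD-Sen D16 libraries above both Ctrl libraries, against 35.8% of all tested miRNAs, and the count was 34 in DDR-Sen D16 against 31.9%, and 27 in RS against 28.1%. Leaving out any 1 of the 4 libraries of a comparison left the median positive, but fewer members passed: 2 to 7 in PMD-Sen D16 and 8 to 14 in DDR-Sen D16. The lowest counts came without Ctrl replicate 2, with 2 and 8 members. In RS the median was 0.27 without RS replicate 2 and 0.76 without RS replicate 1, with 6 and 16 members upregulated. The RS log2 fold changes of hsa-miR-410-3p, hsa-miR-409-5p, hsa-miR-494-3p and hsa-miR-495-3p came to 0.91, 0.48, 0.42 and 0.68 without RS replicate 2. For fits with a library left out, the share of all tested miRNAs called was not computed.

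To ask when the cluster changed, each time point was set against Ctrl. In PMD-Sen the members' median log2 fold change was 0.07 at D0, 0.16 at D1, 0.18 at D2, 0.34 at D3, 0.55 at D4, 0.62 at D6, 0.65 at D8 and 0.73 at D16. In DDR-Sen it was 0.13 at D0, 0.14 at D1, 0.10 at D2, 0.21 at D3, 0.31 at D4, 0.45 at D6, 0.45 at D8 and 0.74 at D16. The PMD-Sen median was the higher one from D1 to D8, by more than 0.1 from D3 on, and both series had nearly the same median at D16. Both PMD-Sen libraries lay above both Ctrl libraries for 12 members at D2, against 19.4% of all tested miRNAs, and for 29 at D3, against 24.7%. In DDR-Sen D3 this held for 24 members, against 29.7%.

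Scaling bears on these medians from D1 to D8 of DDR-Sen. TMM scaling put the D1, D2, D3 and D4 medians at 0.14, 0.10, 0.21 and 0.31, and scaling to total counts put them at -0.05, -0.11, 0.02 and 0.04, where the median of all tested miRNAs was -0.24, -0.21, -0.11 and -0.19. The D6 and D8 medians were 0.29 and 0.31 under total counts. At D16 the medians stayed positive under total counts, at 0.65 in PMD-Sen and 0.68 in DDR-Sen.

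**Figure D3:**
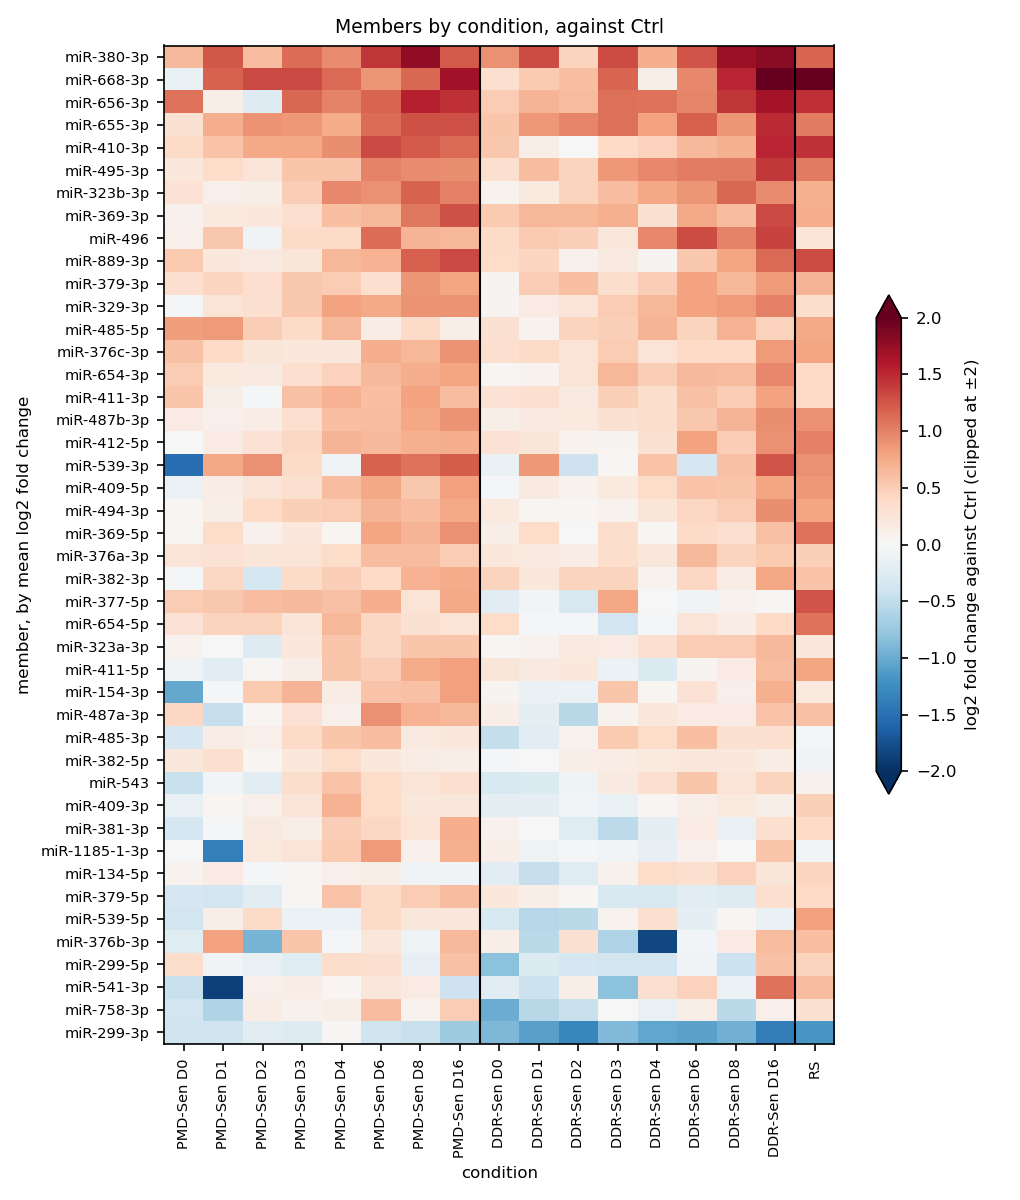
log2 fold change against Ctrl (colour, red higher and blue lower, clipped at 2 in either direction) of the 44 tested members (rows, ordered by their mean) in each of 17 conditions (columns). In most rows red deepens from left to right within each series, while hsa-miR-299-3p is blue in most columns.

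Individual members followed this course with different timing. By the mean log2 CPM of a condition, 20 of the 44 members were highest at D16 in PMD-Sen, 8 at D6, 7 at D8 and 5 at D4. At D0, 21 had their lowest mean. In DDR-Sen, 33 had their highest at D16, and 15 had their lowest at D0 and 11 at D2. The same counts were not made for all tested miRNAs, so they describe the members alone. hsa-miR-409-3p and hsa-miR-543 were highest at D4 of PMD-Sen, where the replicates of hsa-miR-409-3p, at 16711 and 27073 CPM, lay far apart.

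Late libraries (D6, D8 and D16, n = 6) were then compared with early ones (D0, D1 and D2, n = 6) within a series, a comparison that does not use Ctrl. In PMD-Sen, 22 members rose, against 15.6% of all tested miRNAs, and 1 fell, against 18.1%, with a median log2 fold change of 0.57 beside -0.03 for all tested miRNAs. In DDR-Sen, 14 rose, against 12.8%, and 0 fell, against 14.7%, with a median of 0.45 beside 0.03. Unadjusted, 22 were higher and 0 lower late in DDR-Sen, beside 76 and 66 of all 360, and DESeq2 called 0 lower. In 11 members all 6 late PMD-Sen libraries lay above all 6 early ones, against 7.22% of all tested miRNAs, and in DDR-Sen in 12 members, against 6.67%.

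hsa-miR-329-3p had the smallest p in both series. In PMD-Sen it ranged from 1461 to 2226 CPM early (median 1851) and from 2686 to 3293 CPM late (median 2933). In DDR-Sen it ranged from 1377 to 2189 CPM early (median 1857) and from 2701 to 3382 CPM late (median 3144). The early and late ranges did not overlap, and the log2 fold changes were 0.66 ± 0.11 (adjusted p = 3.38e-05 by edgeR) and 0.73 ± 0.11 (adjusted p = 8.87e-06).

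hsa-miR-323b-3p had 189 to 312 CPM early and 343 to 470 CPM late in PMD-Sen, and 198 to 302 CPM early and 358 to 459 CPM late in DDR-Sen. Neither pair of ranges overlapped, and the log2 fold changes were 0.86 ± 0.16 (adjusted p = 9.71e-05 by edgeR) and 0.76 ± 0.15 (adjusted p = 0.000291). hsa-miR-543 had 1616 to 2574 CPM early (median 2086) and 2661 to 3474 CPM late (median 3125) in PMD-Sen, and 1617 to 2372 CPM early (median 2191) and 2888 to 3911 CPM late (median 3289) in DDR-Sen. It too rose without overlap, by 0.55 ± 0.12 and 0.64 ± 0.12 (adjusted p = 0.000585 and 0.000155). hsa-miR-409-5p, hsa-miR-487b-3p, hsa-miR-494-3p, hsa-miR-495-3p, hsa-miR-323a-3p and hsa-miR-412-5p also rose in both series without overlap between early and late libraries, with log2 fold changes of 0.46 (hsa-miR-323a-3p in DDR-Sen) to 0.70 (hsa-miR-495-3p in DDR-Sen).

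In PMD-Sen the other members that rose were hsa-miR-379-5p, hsa-miR-1185-1-3p, hsa-miR-411-5p, hsa-miR-411-3p, hsa-miR-369-3p, hsa-miR-369-5p, hsa-miR-410-3p, hsa-miR-656-3p, hsa-miR-154-3p, hsa-miR-381-3p, hsa-miR-485-3p, hsa-miR-487a-3p and hsa-miR-654-3p. In DDR-Sen they were hsa-miR-485-3p, hsa-miR-134-5p, hsa-miR-654-3p, hsa-miR-410-3p and hsa-miR-668-3p, of which hsa-miR-668-3p rose most (1.06 ± 0.28, adjusted p = 0.00474 by edgeR), from 17.2 to 69.0 CPM early to 57.9 to 161 CPM late. hsa-miR-539-3p had the highest value in PMD-Sen, 1.11 ± 0.57, with 0 CPM in its lowest early library and 48.2 CPM in its highest late one, and did not pass (adjusted p = 0.128 by edgeR). Its value was 0.73 without PMD-Sen D8 replicate 1 and 2.53 without PMD-Sen D0 replicate 2, and that of hsa-miR-656-3p went from 1.08 to 1.83 without the latter library. hsa-miR-496 had a value of 0.76 ± 0.31 in DDR-Sen and did not pass (adjusted p = 0.0705).

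The 1 member that fell was hsa-miR-485-5p in PMD-Sen. It had 784 to 1741 CPM early (median 1113) and 719 to 953 CPM late (median 875), so that the ranges overlapped, with a log2 fold change of -0.51 ± 0.20 (adjusted p = 0.0486 by edgeR). The call was lost in most alternative settings, among them total counts and the fit without D0, and the value was -0.33 without PMD-Sen D1 replicate 2.

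The interaction between time and series asked whether late against early differed between PMD-Sen and DDR-Sen. The members' median difference was 0.03 log2 beside 0.00 for all tested miRNAs. Of the members, 3 had a higher log2 fold change in PMD-Sen, against 6.39% of all tested miRNAs, and 1 a lower one, against 9.17%.

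hsa-miR-379-5p, from the first hairpin, had 2137 to 3777 CPM early and 4499 to 5860 CPM late in PMD-Sen, without overlap. In DDR-Sen it had 3227 to 4240 CPM early and 2869 to 4748 CPM late, with a lower median late (3179 CPM) than early (4181 CPM). Late against early, PMD-Sen had a change of 0.81 ± 0.14 and DDR-Sen of -0.17 ± 0.13, and the difference of 0.98 ± 0.19 passed (adjusted p = 0.00175 by edgeR). At D0 the PMD-Sen libraries had 2757 and 3009 CPM and the DDR-Sen libraries 4175 and 4240 CPM. The Ctrl libraries had 3854 and 3409 CPM. At D4 the PMD-Sen libraries had 3920 and 6917 CPM and the DDR-Sen libraries 3096 and 2721 CPM, and at D16 they had 5301 and 5860 CPM against 4381 and 4748 CPM.

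hsa-miR-411-5p, from the neighbouring hairpin 1.26 kb downstream, had 509 to 1007 CPM early and 1172 to 1680 CPM late in PMD-Sen, and 799 to 1200 CPM early and 857 to 1510 CPM late in DDR-Sen. The ranges overlapped in DDR-Sen only, and the difference between the series was 0.70 ± 0.23 (adjusted p = 0.0346 by edgeR). hsa-miR-1185-1-3p had 75.4 to 301 CPM early and 207 to 426 CPM late in PMD-Sen, and 172 to 300 CPM early and 179 to 353 CPM late in DDR-Sen, with a difference of 0.72 ± 0.25 (adjusted p = 0.043). When single libraries were left out, the calls of hsa-miR-411-5p and hsa-miR-1185-1-3p were lost in 12 and 14 of 24 fits, whereas those of hsa-miR-379-5p and hsa-miR-134-5p were kept in all 24.

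hsa-miR-134-5p went the other way. In DDR-Sen it had 1486 to 1933 CPM early and 2400 to 3180 CPM late, without overlap, and in PMD-Sen it had 1750 to 2803 CPM early and 1802 to 2707 CPM late, so that the late range lay within the early one. The late-against-early change was 0.66 ± 0.13 in DDR-Sen and -0.08 ± 0.13 in PMD-Sen, a difference of -0.73 ± 0.18 (adjusted p = 0.00723 by edgeR). hsa-miR-485-5p, whose hairpin starts 33.4 kb from the start of the cluster near MIR134 at 32.6 kb, had a difference of -0.78 ± 0.28 that did not pass (adjusted p = 0.058).

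**Figure D4:**
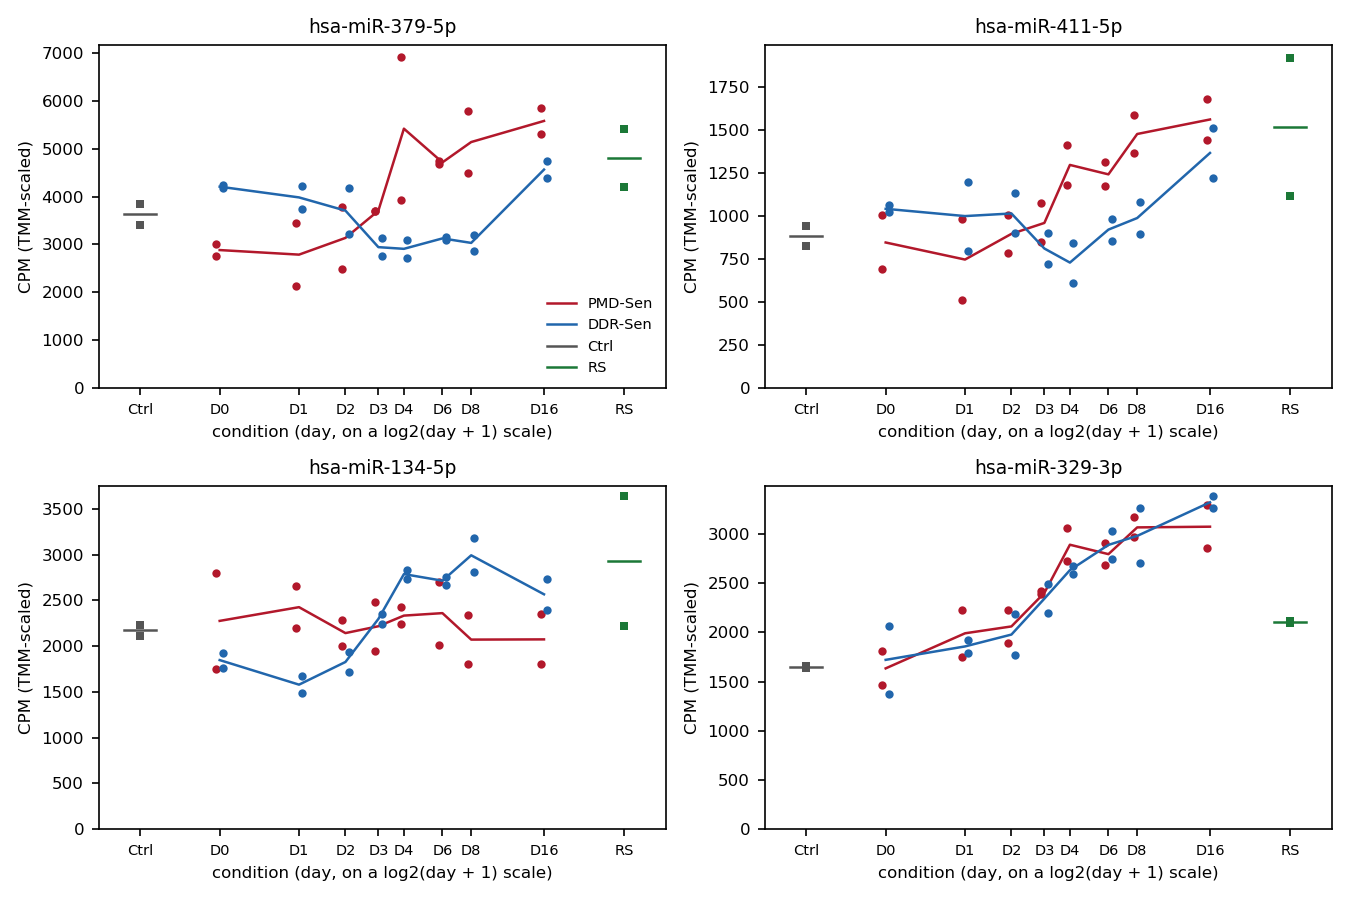
TMM-scaled CPM (vertical axes, from 0) by condition (horizontal axes, days on a log2(day + 1) scale) for hsa-miR-379-5p, hsa-miR-411-5p, hsa-miR-134-5p and hsa-miR-329-3p. Points are single libraries and lines join the means of 2 replicates. With PMD-Sen higher, the libraries of the series separate from D3 to D16 for hsa-miR-379-5p and from D4 to D8 for hsa-miR-411-5p. At D0 the DDR-Sen libraries are the higher ones for both. For hsa-miR-329-3p the series run together.

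Averaged over D1 to D16, 7 members were higher in PMD-Sen than in DDR-Sen, against 9.17% of all tested miRNAs, and 0 were lower, against 10.8%. Unadjusted, 11 were higher and 1 lower, beside 55 and 64 of all 360, and DESeq2 called 0 lower. The members' median difference was 0.08. hsa-miR-377-5p had 93.0 to 174 CPM in the 14 PMD-Sen libraries (median 146) and 57.8 to 161 CPM in the 14 DDR-Sen libraries (median 92.9), with a log2 difference of 0.54 ± 0.12 (adjusted p = 0.00108 by edgeR). hsa-miR-299-3p had 45.6 to 126 CPM (median 79.4) and 19.3 to 85.2 CPM (median 49.2), with the highest difference of the cluster, 0.76 ± 0.21 (adjusted p = 0.00762). The ranges overlapped for both. The others were hsa-miR-381-3p (0.40), hsa-miR-409-3p (0.26), hsa-miR-379-5p (0.30), hsa-miR-410-3p (0.40) and hsa-miR-654-5p (0.35), also with overlapping ranges. hsa-miR-541-3p (-0.32 ± 0.27) and hsa-miR-496 (-0.31 ± 0.21) had the lowest values and did not pass (adjusted p = 0.445 and 0.326), and that of hsa-miR-541-3p ranged from -0.995 without PMD-Sen D1 replicate 2 to -0.13 without PMD-Sen D1 replicate 1. Under total counts 21 members were higher and the median was 0.25, and in libraries thinned to the smallest total 3 were higher. The share of all tested miRNAs was not computed for these settings, so these counts are not a result about the cluster. Under total counts, all tested miRNAs had medians against Ctrl of -0.24 (D1) to -0.07 (D6) in DDR-Sen from D1 to D16. In PMD-Sen these medians ran from -0.06 (D8) to 0.06 (D2).

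RS was also compared with the mean of both D16 conditions. The members' median was -0.10, with 1 member higher, against 5.56% of all tested miRNAs, and 1 lower, against 3.89%. hsa-miR-377-5p had 219 and 230 CPM in RS, 174 and 143 CPM in PMD-Sen D16, and 104 and 88.2 CPM in DDR-Sen D16, with RS above all 4 D16 libraries (0.86 ± 0.24, adjusted p = 0.0219 by edgeR). hsa-miR-329-3p was lower in RS (-0.60 ± 0.17, adjusted p = 0.0179), from the values given above. hsa-miR-668-3p had a difference of 0.92 ± 0.36, the highest of the cluster, which did not pass (adjusted p = 0.106), and hsa-miR-496 (-0.75 ± 0.47) and hsa-miR-1185-1-3p (-0.69 ± 0.25) had the lowest. These values rested on single RS libraries, at -1.76 and -1.15 without RS replicate 2 and at -0.26 and -0.43 without RS replicate 1. The median turned positive, to 0.04, without RS replicate 1, so a general difference of the cluster between RS and D16 was not detectable in these libraries.

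The 2 arms of a hairpin are cut from the same precursor, so their ratio does not depend on library size. Both arms passed the filter for 16 cluster hairpins of 86 hairpins in the table, some with a partner arm that is not among the 46 members. The 3p arm held most counts of miR-329 (99.0%), miR-487b (99.0%), miR-410 (98.1%), miR-323a (96.9%), miR-409 (92.6%), miR-369 (78.6%), miR-541 (75.5%), miR-485 (69.0%) and miR-487a (60.3%). The 5p arm held most of miR-412 (3p share 2.14%), miR-379 (3.29%), miR-382 (5.74%), miR-539 (14.6%) and miR-411 (34.1%), and the arms of miR-654 (47.0%) and miR-299 were nearly balanced.

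The arm balance moved in few hairpins. Against Ctrl, 0 of 16 passed in PMD-Sen D16 (limma, against 4.65% of the 86 hairpins, unadjusted 3), 1 in DDR-Sen D16 (against 3.49%) and 0 in RS (against 4.65%, unadjusted 4). Late against early, 2 passed in PMD-Sen (against 12.8%, so near that share) and 0 in DDR-Sen (against 2.33%, unadjusted 1). Between the series 1 passed in the interaction (against 5.81%, so near that share) and 0 over D1 to D16 (against 2.33%, unadjusted 3). For RS against D16, 0 passed (against 0% of the 86, unadjusted 3). Unadjusted, 14 of all 86 hairpins passed in PMD-Sen D16 and 16 in RS. Late against early in DDR-Sen the unadjusted count was 11, over D1 to D16 it was 18, and for RS against D16 it was 17.

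For miR-487b the 3p share was 97.7% and 98.2% in Ctrl and 99.4% and 99.5% in DDR-Sen D16, a log2 change of the 3p to 5p ratio of 1.75 ± 0.46 (adjusted p = 0.0307 by limma). It no longer passed when any 1 of the 4 libraries was left out or when libraries were thinned. For miR-323a in PMD-Sen, the 3p share was 85.8% to 98.1% early and 96.6% to 98.9% late (1.54 ± 0.39, adjusted p = 0.00555 by limma). For miR-485 in PMD-Sen it was 51.7% to 71.0% early and 66.2% to 79.4% late (0.84 ± 0.19, adjusted p = 0.00176). In the same comparison hsa-miR-485-5p fell and hsa-miR-485-3p rose, the latter with a log2 fold change of 0.36 ± 0.12 (adjusted p = 0.0175 by edgeR).

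For miR-379 the 3p share in PMD-Sen was 3.33% to 5.16% early and 2.31% to 4.43% late, and in DDR-Sen 1.91% to 3.98% early and 2.83% to 5.35% late. The change of the ratio differed between the series by -1.09 ± 0.29 (adjusted p = 0.0124 by limma). hsa-miR-379-3p itself had a late-against-early value of 0.30 ± 0.19 in PMD-Sen and 0.39 ± 0.17 in DDR-Sen. Its difference between the series was -0.09 ± 0.25 (adjusted p = 0.874 by edgeR), beside 0.98 ± 0.19 for hsa-miR-379-5p. Some counts of hsa-miR-379-3p were not whole numbers (11.5 in its lowest library), because reads that fit several miRNAs were shared.

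**Figure D5:**
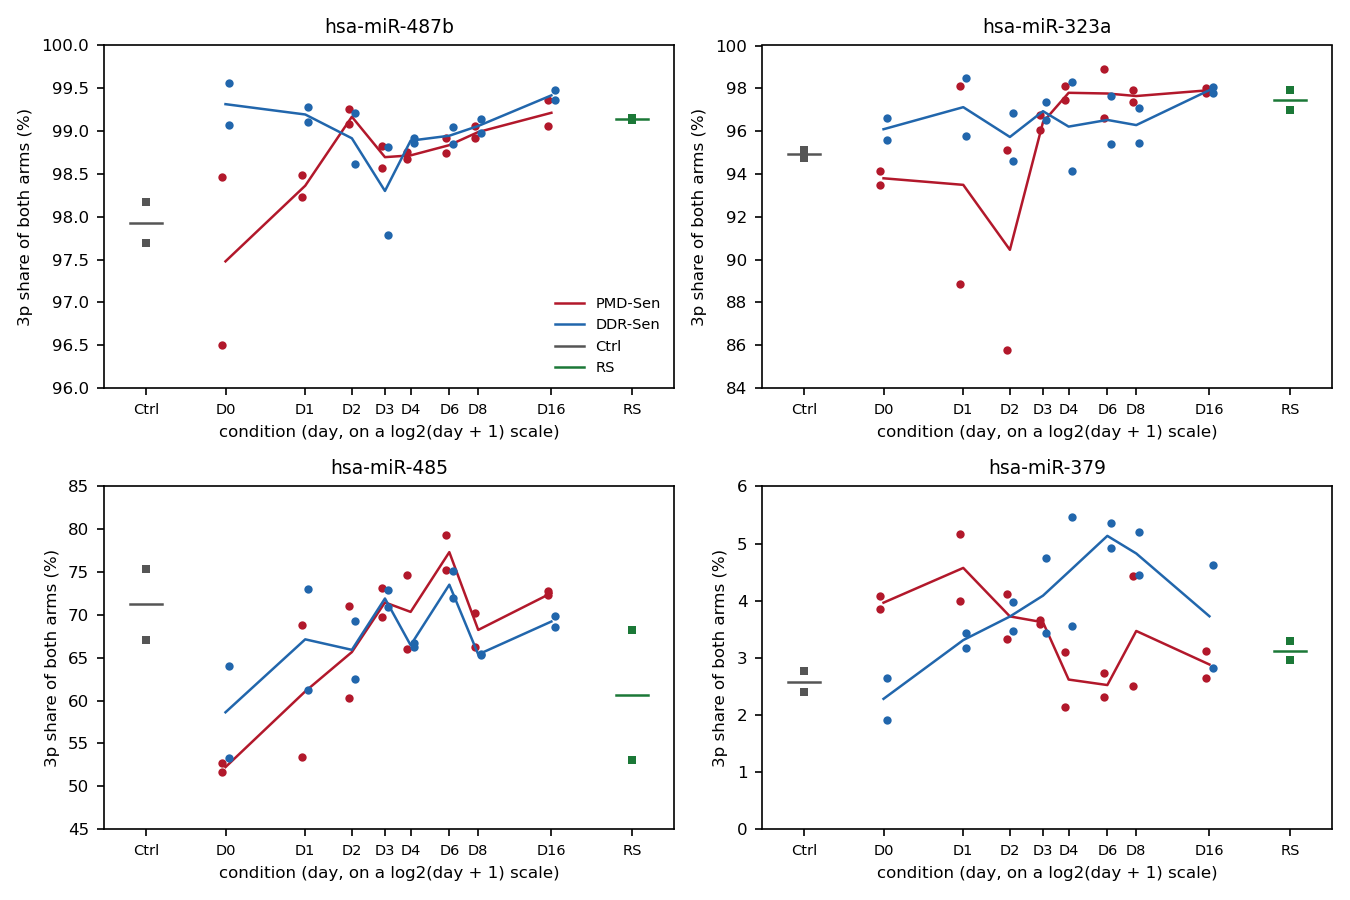
Share of the 3p arm among the counts of both arms, in percent (vertical axes, which start above 0 for all hairpins but miR-379), by condition (horizontal axes, days on a log2(day + 1) scale) for miR-487b, miR-323a, miR-485 and miR-379. Points are single libraries and lines join the means of 2 replicates. The miR-379 lines meet at D2, at 3.72%, with PMD-Sen higher before and DDR-Sen higher after it.

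Position along the cluster went with little of the variation between members. Across 43 tested members with a position, Spearman's rho between distance and log2 fold change was 0.17 in PMD-Sen D16, 0.16 in DDR-Sen D16 and 0.32 in RS. The members in MEG8 introns had a median of 0.62, 0.65 and 0.41 (n = 13), those in MEG9 of 0.74, 0.77 and 0.72 (n = 25) and those between the genes of 0.65, 0.63 and 0.61 (n = 5). The members share their libraries and lie on 1 strand of 1 region, so these are descriptions of 43 related values.

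At D16 of both series, the GC content of the mature sequence went with the log2 fold change more closely than position did. In RS it did not. Across the 43 members rho was -0.65 in PMD-Sen D16, -0.59 in DDR-Sen D16 and -0.30 in RS, and across 282 other tested miRNAs it was -0.30, -0.24 and -0.06. The low-GC members hsa-miR-656-3p (28.6%), hsa-miR-655-3p (27.3%), hsa-miR-380-3p (31.8%) and hsa-miR-369-3p (23.8%) had some of the highest log2 fold changes at D16. The high-GC members hsa-miR-134-5p (59.1%), hsa-miR-654-5p (63.6%), hsa-miR-485-5p (54.5%) and hsa-miR-409-3p (54.5%) lay below the members' median there. Other members went against the relation. hsa-miR-323b-3p (54.5%) had 1.01 in PMD-Sen D16 and 0.95 in DDR-Sen D16, and hsa-miR-376b-3p (31.8%) had 0.65 and 0.63. hsa-miR-541-3p (54.5%) had -0.41 and 1.08. GC content also went with the difference between replicates of 1 condition, where rho reached 0.66 in RS and 0.65 in PMD-Sen D0, and was -0.65 in PMD-Sen D6. In RS, replicate 1 was the higher one for hsa-miR-654-5p (2589 against 1388 CPM), hsa-miR-485-5p (1742 against 737 CPM) and hsa-miR-134-5p (3638 against 2222 CPM), and the lower one for hsa-miR-369-3p (697 against 1455 CPM) and hsa-miR-410-3p (589 against 956 CPM).

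The members had a median GC content of 45.5%, and the other tested miRNAs with a sequence of 52.2%. After a correction for GC content, set per library on the 282 other miRNAs, the members' median was 0.67 in PMD-Sen D16, 0.73 in DDR-Sen D16 and 0.64 in RS, with 19, 19 and 23 members upregulated, against 14.2%, 16.3% and 19.7% of all 325 miRNAs tested after it. Late against early, 25 members rose in PMD-Sen, against 22.2%, and 27 in DDR-Sen, against 22.8%, with medians of 0.56 and 0.53, and the fall of hsa-miR-485-5p was no longer called. Over the same 43 members, the medians without the correction were 0.73, 0.71 and 0.62 in the comparisons with Ctrl, while rho between GC content and log2 fold change across members went to -0.30, -0.24 and -0.17.

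Over the 18 condition means, 32 of the 44 members had a Spearman's rho above 0.5 with the median of the other members, and the middle value was 0.66. hsa-miR-494-3p (0.91), hsa-miR-409-5p (0.86), hsa-miR-409-3p (0.84), hsa-miR-412-5p (0.84), hsa-miR-410-3p (0.83) and hsa-miR-889-3p (0.83) followed the cluster most closely. hsa-miR-485-5p (-0.06), hsa-miR-299-3p (0.12), hsa-miR-382-5p (0.13) and hsa-miR-134-5p (0.31) followed it least. Of the 316 other tested miRNAs, whose middle value was -0.11, the 4 most alike were hsa-miR-127-5p (0.84), hsa-miR-493-3p (0.83), hsa-miR-370-3p (0.81) and hsa-miR-127-3p (0.81), all of the proximal 14q32 group upstream in the same imprinted region.

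The proximal 14q32 list held 18 miRNAs, of which 16 were tested. Of these, 5 rose in PMD-Sen D16, against 8.89% of all 360 tested miRNAs, and 6 in DDR-Sen D16, against 11.4%. In RS 2 rose, against 10.3%, which is near that share. The median log2 fold changes were 0.66, 0.61 and 0.50. hsa-miR-127-3p, which lies antisense to the RTL1 gene, rose by a log2 of 0.90 ± 0.17, 0.67 ± 0.17 and 1.09 ± 0.17 (adjusted p = 0.000823, 0.00467 and 1.6e-05 by edgeR). A further list of 29 arms and hairpins of the distal cluster outside the 46 members had 8 tested names, of which 0, 1 and 0 had an unadjusted p below 0.05 by edgeR in the comparisons with Ctrl and no name passed after adjustment, with median log2 fold changes of 0.18, 0.29 and -0.19.

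Some members are nearly identical to each other, such as hsa-miR-379-3p and hsa-miR-411-3p, hsa-miR-376a-3p and hsa-miR-376b-3p, and hsa-miR-487a-3p and hsa-miR-487b-3p. Others are nearly identical to miRNAs outside the list, such as hsa-miR-1185-1-3p and its paralogue from MIR1185-2. A read that fits several miRNAs was shared among them in the deposited table, so their separate values are less certain. Of the 1656 member values, 61 were not whole numbers. Among them were counts of hsa-miR-379-3p (11.5 in its lowest library) and of hsa-miR-411-3p (1211.5 in its highest).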

How the data were processed

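Small RNA was sequenced from 36 WI-38 libraries, 18 conditions with 2 biological replicates each. The study's methods name the exceRpt pipeline, with which the authors removed adapters, aligned the reads against GRCh38 and miRBase, and counted them. The deposited values are expected counts per mature miRNA, not normalised, in which reads that fit several miRNAs are shared. Per the labels, libraries were made from 100 ng of total RNA with the NEXTFLEX Small RNA-Seq Kit v3.

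Counts were rounded to whole numbers and tested in R 4.3.3 with edgeR 4.0.16, using TMM scaling, filterByExpr on the 18 conditions, 1 fit of all 36 libraries with 18 residual degrees of freedom, quasi-likelihood F tests, and p adjusted by Benjamini-Hochberg over 360 miRNAs. Members passing an adjusted p of 0.05 are called upregulated or downregulated, or are said to have risen or fallen. The SE is the absolute log2 fold change divided by the square root of F. CPM are TMM-scaled. Arm balance was tested with limma 3.58.1 (trend, robust) on log2 CPM of 3p minus 5p, prior count 2, over 86 hairpins. The procedure was tested on simulated data. Members reported by name are the 8 most abundant, at most 8 called members per comparison in order of p, the 2 highest and 2 lowest log2 fold changes, and hairpins with both arms tested; other called members are listed.

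Replicate numbers showed no general pairing of the libraries. Over 153 pairs of conditions, same-numbered deviations of all tested miRNAs had a median correlation of 0.04, above 0.1 in 53. For the members alone the median was 0.05, with a range of -0.69 to 0.72, and 71 pairs lay above 0.1. A difference linked to the replicate number in some conditions was not tested. Alternatives were DESeq2 1.42.0, the study's thresholds, other scalings and filters, the libraries of a comparison alone, a replicate block, thinning, other definitions of late and early, and leaving out each library. A GC correction and a fit without PMD-Sen D16 were added after seeing the data. The members and lists were chosen with earlier results of these data known. Sequences and hairpin positions are from RefSeq (GRCh38.p14), host genes from GENCODE v44. Library totals of 81668 to 1933435 counts limit the precision of low members. The mRNA data were not analysed here.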

Additional observations from a re-analysis of the deposited data

Results flagged for a closer look

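The change from early to late libraries differed between PMD-Sen and DDR-Sen, by the test of the interaction itself, for 4 of 44 members (3 higher and 1 lower in PMD-Sen, against 6.39% and 9.17% of all tested miRNAs) and for the arm balance of 1 of 16 hairpins (against 5.81% of all 86), shares near those of all features. For hsa-miR-379-5p the difference (PMD-Sen minus DDR-Sen) was 0.98 on the log2 scale, for hsa-miR-411-5p 0.70, for hsa-miR-1185-1-3p 0.72 and for hsa-miR-134-5p -0.73 (edgeR, adjusted p = 0.00175, 0.0346, 0.043 and 0.00723). For the 3p to 5p ratio of miR-379 it was -1.09 (limma, adjusted p = 0.0124). MIR379 and MIR411 are neighbouring hairpins at the start of the cluster, and the 3p arms of both did not pass the same test. Counts of both 3p arms include values that are not whole numbers, from shared reads, so they are less certain. With 1 library left out, the calls of hsa-miR-411-5p and hsa-miR-1185-1-3p were lost in 12 and 14 of 24 fits.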

How the results depend on the processing

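The members' median log2 fold changes stayed positive under every alternative run in the 3 comparisons with Ctrl and in late against early of both series. The counts of called members moved more. Where no share of all tested miRNAs or hairpins stands beside a count below, it was not computed. Such counts show how the calls on the members moved, not how the members compare with all tested miRNAs. With the study's thresholds (unadjusted p below 0.05, absolute log2 fold change above 1), 8 members were higher in PMD-Sen D16 and 10 in DDR-Sen D16, 1 was lower in DDR-Sen D16 and 1 in RS, 1 was higher and 0 lower late in PMD-Sen, 1 was higher late in DDR-Sen, and 0 were higher or lower in the interaction and in RS against D16 and 0 higher in PMD-Sen against DDR-Sen. DESeq2 called 1 member lower in DDR-Sen D16, 2 lower in the interaction and 3 higher in RS against D16. With total counts, 21 members were higher in PMD-Sen than in DDR-Sen and 0 fell late in PMD-Sen. Without the low-count filter, 0 fell late in PMD-Sen, 0 were lower in the interaction, and 0 were higher or lower in RS against D16, and with a mean of at least 10 counts 2 were higher in RS against D16.

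With only the libraries of a comparison in the fit, 2 members were higher in RS, 1 was lower in DDR-Sen D16, 0 fell late in PMD-Sen, and 0 were higher or lower in RS against D16; that fit has fewer samples to estimate the spread. Thinned to the smallest total, 11 were higher in DDR-Sen D16, 3 in PMD-Sen against DDR-Sen and 0 in RS against D16, 0 fell late in PMD-Sen, and the arm balance passed for 0 hairpins in DDR-Sen D16, 0 in the interaction and 1 in RS against D16. The log2 fold change of hsa-miR-539-5p in DDR-Sen D16 turned to 0.56 and that of hsa-miR-496 late in DDR-Sen to -0.24. As a slope over log2(day + 1), 1 member was higher in the interaction, and without D0, 0 fell late in PMD-Sen. At an unadjusted p, the arm balance passed for 3 cluster hairpins in PMD-Sen D16, 3 in DDR-Sen D16, 4 in RS, 7 and 1 late in PMD-Sen and DDR-Sen, 4 in the interaction, 3 in PMD-Sen against DDR-Sen and 3 in RS against D16. Of all 86 hairpins, 14, 14, 16, 29, 11, 20, 18 and 17 passed in the same order.

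As alternatives chosen after seeing the data, a fit without PMD-Sen D16 gave 0 that fell late in PMD-Sen and 1 higher in the interaction. The GC correction gave 23 higher in RS (beside 64 of all 325 miRNAs tested after it) and 27 higher late in DDR-Sen (beside 74). It gave 0 that fell late in PMD-Sen (beside 50) and 11 higher in PMD-Sen against DDR-Sen (beside 47). In RS against D16 it gave 2 higher and 0 lower (beside 21 and 13). With a replicate block, although the numbers showed no general pairing of the libraries, 1 member was lower in PMD-Sen against DDR-Sen and 2 were higher in RS against D16, and all members called without the block were still called. The cause of these changes was not tested.

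With 1 library left out, where a lone library of a condition is assumed to vary like the others, 2 to 7 members were higher in PMD-Sen D16, 8 to 14 in DDR-Sen D16 and 6 to 16 in RS, with a median of 0.27 to 0.76 in RS. Late in PMD-Sen 0 to 1 fell. In the interaction 1 to 4 were higher and 1 to 2 lower, in PMD-Sen against DDR-Sen 0 to 1 were lower, and in RS against D16 0 to 2 were higher and 0 to 3 lower, with a median of -0.41 to 0.041. The arm balance passed for 0 to 0 hairpins in DDR-Sen D16, 2 to 7 late in PMD-Sen, 1 to 2 in the interaction, 0 to 1 in PMD-Sen against DDR-Sen and 0 to 2 in RS against D16. The sign of members that were not called also turned: without Ctrl replicate 1, hsa-miR-541-3p in PMD-Sen D16 had 0.83 and hsa-miR-382-5p in RS 0.14 (ranges -1.19 to 0.83 and -0.26 to 0.14 over the libraries left out). Late against early, hsa-miR-299-3p ranged from -0.38 to 0.23 in PMD-Sen, the latter without D0 replicate 1, and from -0.43 to 0.33 in DDR-Sen, the latter without D2 replicate 1. With 2 replicates and totals down to 81668 counts, changes of members under about 100 CPM, such as hsa-miR-299-3p and hsa-miR-541-3p, are measured least precisely.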
